A study of Homo sapiens with 6 samples.

Results

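MYC binding was examined at the genes of 10 cytosolic ribosomal proteins in ONS76 cells. Of these, 5 encode proteins of the large ribosomal subunit (RPLP0, RPL3, RPL5, RPL11 and RPL23) and 5 encode proteins of the small subunit (RPS2, RPS3, RPS6, RPS14 and RPS19). The 10 genes were chosen with earlier results of these data known. Peaks were assigned to them by position alone: a peak belonged to a gene when its summit, the base with the highest signal, lay within 5 kb of the start of that gene in hg19. This gave 32 of the 59006 peaks in the lists, of which 12 came from replicate 1, 10 from replicate 2 and 10 from replicate 3. ONS76 is an established human medulloblastoma line. The cells are taken here to carry an inducible SOX2 construct in both antibody groups. However, the sample titles and the study's ChIP-seq methods name them only as ONS76. The MYC group had 3 libraries made with the Y69 antibody, and each had its own peak list. The other group had 3 libraries of normal IgG, a non-specific antibody, for which no peak list was used. SOX2 had not been elevated in the cells used for ChIP-seq. The study's methods describe pooling immunoprecipitations made from a single chromatin batch, without saying whether each replicate was such a pool. The SD given below is the spread between libraries, which may be technical.

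Ribosomal proteins and ribosomal RNA together build the ribosome, the machine that translates mRNA into protein. MYC is a transcription factor that binds DNA as a dimer with its partner MAX, best at the letters CACGTG, called the canonical E-box, and genes for ribosome production and translation are among its best known targets. In dividing cells the ribosomal protein genes are among the most active genes, and their mRNAs typically begin with a run of pyrimidines, called the TOP sequence, through which growth signals adjust their translation.

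Sequence before the starts of 5 of the genes is shown because every strongest MYC peak of the set covered the gene start. The RefSeq promoter table (GRCh38.p14) held 7 of the 10 genes. RPL5, RPS2 and RPL23 had no entry. Each stretch is the 110 bases just before the listed start (the later of the 2 listed for RPL11), on the strand of the gene. Capitals mark CCGGAAG or its reverse complement, letters bound by ETS-family factors, in the first 4 stretches. In RPLP0 they mark CACGCG, an E-box variant. The last line is 30 bases around the one canonical E-box found in these promoters, in capitals, in RPS19. Positions are given in hg38, while the peaks are in hg19, so sequences and peaks were not laid over each other.
RPS14, chr5:150449740-150449849, minus strand: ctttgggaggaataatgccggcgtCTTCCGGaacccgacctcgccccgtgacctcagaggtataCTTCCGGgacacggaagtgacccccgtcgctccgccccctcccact
RPS6, chr9:19380237-19380346, minus strand: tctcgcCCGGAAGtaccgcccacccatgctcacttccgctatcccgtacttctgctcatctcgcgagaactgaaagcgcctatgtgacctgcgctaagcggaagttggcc
RPL3, chr22:39319624-39319733, minus strand: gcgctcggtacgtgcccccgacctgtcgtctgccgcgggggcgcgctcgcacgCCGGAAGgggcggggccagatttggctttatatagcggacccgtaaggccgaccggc
RPL11, chr1:23691696-23691805, plus strand: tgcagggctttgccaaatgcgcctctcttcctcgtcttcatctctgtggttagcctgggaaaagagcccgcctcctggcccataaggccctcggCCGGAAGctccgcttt
RPLP0, chr12:120201112-120201221, minus strand: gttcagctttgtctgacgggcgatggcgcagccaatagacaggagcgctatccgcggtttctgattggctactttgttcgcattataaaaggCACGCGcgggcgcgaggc
RPS19, chr19:41860403-41860432, plus strand: tagagccgcggcCACGTGcgagcggcaggc

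The first question was whether MYC occupied these genes, and in how many libraries. All 10 genes had a peak in each of the 3 replicates, and at each gene the 3 peaks overlapped in a single place. Among all 27801 places made by merging overlapping peaks, 62.4% had peaks from at least 2 replicates and 45.0% from all 3. The strength of the peaks bears on this count. At the weakest gene the highest fold enrichment was 9.55, and of the 2467 places that reached this value 100% were found in all 3 replicates. As a background for the windows, 3.77% of the positions in the span of the lists lay within 5 kb of a summit in all 3 replicates, although that span is mostly far from gene starts. No annotation of hg19 was used here, so the share of other gene starts with a peak was not measured, and the other ribosomal protein genes were not placed.

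The strongest peak of each gene sat on its start. All 30 of these peaks, 1 for each gene and replicate, covered the start. Along the direction of transcription, 28 of the 30 summits lay downstream of the start, 1 lay on it (RPL23 in replicate 1) and 1 lay 8 bp upstream (RPL3 in replicate 2). By replicate, the summit was downstream at 9, 9 and 10 of the 10 genes. The 3 summits of a gene are not independent, and the hg19 starts that set the direction were not checked. The share of downstream summits at other gene starts was not measured. Within 250 bp of the start were 27 summits, and the remaining 3 were those of RPS19. The median distance over genes was 122 bp in replicate 1, 127 bp in replicate 2 and 132 bp in replicate 3. In 23 of the 30 peaks the interval reached farther after the start than before it, with a median reach of 602 bp after and 339 bp before. This held in all 3 replicates at 7 of the 10 genes.

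RPS19 had the summit farthest from the start used. Its protein takes part in maturation of the small subunit and is the one most often mutated in Diamond-Blackfan anaemia, an inherited failure of red cell production. The summits were 412 bp, 440 bp and 436 bp after the start in replicates 1, 2 and 3, a mean of 429 bp ± 15.1 (SD, n = 3). No other gene had a summit beyond 222 bp. The hg19 starts came with the rule and were not checked against an annotation of that build, so a start placed too early would lengthen this distance. RefSeq lists 2 starts of RPS19 in hg38 that are 149 bases apart.

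RPS2, a small subunit protein, had the tightest summits, at 44 bp, 44 bp and 50 bp. The summits of RPLP0, which anchors the stalk where translation factors dock, were also close to the start, at 43 bp, 39 bp and 3 bp. In both genes another start lies nearby on the opposite strand. In the GENCODE annotation of hg38, the start of the noncoding RNA SNHG9 is 54 bp before that of RPS2, and that of PXN-AS1 is 39 bp before that of RPLP0. Because the peaks covered about 1 kb, which of the starts in such a pair the signal belongs to cannot be told apart. RNF151, a protein-coding gene, starts 1982 bp before RPS2, and no other gene of the set had a protein-coding start within 5 kb.

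RPS3, which lies at the mRNA entry channel of the small subunit, had summits at 214 bp, 209 bp and 138 bp. RPS6, the classical substrate of the S6 kinases, had them at 179 bp, 222 bp and 138 bp. RPL5 and RPL11 join the smallest ribosomal RNA of the large subunit in one particle, which also restrains MDM2 when ribosome assembly fails. Their summits were at 127 bp, 188 bp and 178 bp for RPL5 and at 118 bp, 132 bp and 155 bp for RPL11. RPS14 had summits at 107 bp, 92 bp and 79 bp, RPL23 at 0 bp, 122 bp and 66 bp, and RPL3 at 167 bp, 8 bp upstream and 125 bp. The 3 summits of a gene spanned from 6 bp (RPS2) to 175 bp (RPL3), with a median of 50.5 bp. First exons are short in these genes, from 20 to 78 bases in the canonical GENCODE transcripts, against transcript spans of 2769 to 12671 bases. The mean summit distance was greater than the first exon length in 9 of the 10 genes and was 28.3 bp against 29 bases in RPLP0. These lengths come from another build and from possibly other starts, and they do not place a summit in an exon or intron.

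**Figure D1:**
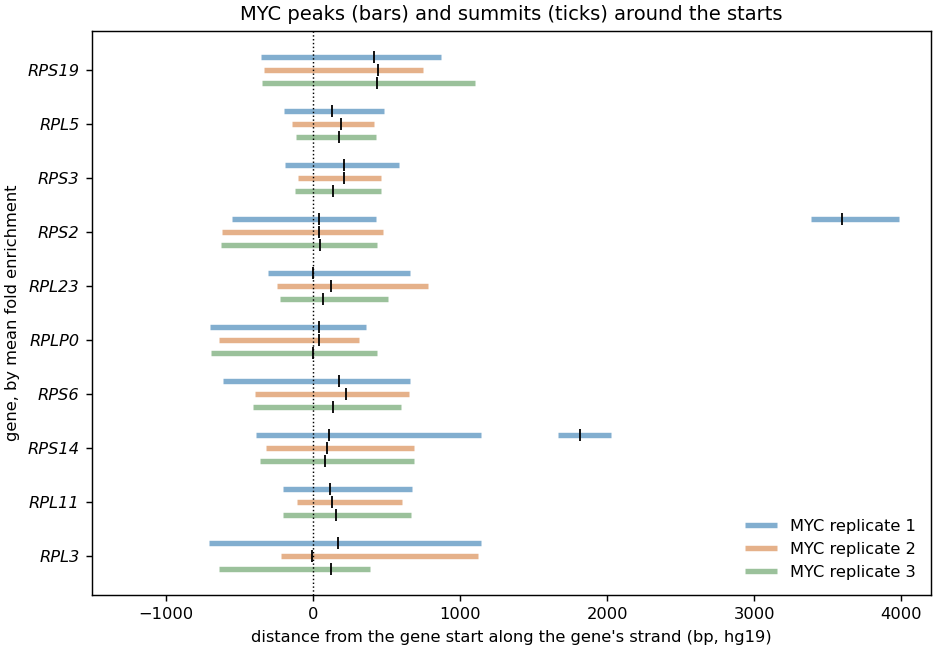
Bars are the MYC peaks with summits within 5 kb of the 10 gene starts, in bp along the direction of transcription, colored by replicate, and black ticks are their summits. All 30 strongest peaks cover the start (dotted line), RPS19 has its summits at 412 to 440 bp, and the only other peaks are 1 in RPS14 and 1 in RPS2, both in replicate 1.

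Beside the strongest peaks, the windows held only 2 more. Both were in replicate 1, the library with the highest genome-wide background, and neither overlapped a peak of another replicate. In RPS14 a peak of 2.81-fold with 26 fragments had its summit 1818 bp after the start. In RPS2 a peak of 3.64-fold with 31 fragments had its summit 3600 bp after the start. Their fold enrichment was at the 12.9th and 38.3rd percentile of the replicate 1 list. Just outside the window, 5295 to 5347 bp after the RPS2 start, a peak was found in each replicate, with fold enrichments of 6.10, 4.53 and 4.86.

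Fold enrichment compares the fragments at the summit with the local background that MACS2 estimated. Whether that background was taken from an IgG library or from the MYC library itself is not known here. The 10 genes ranged from 6.14 to 30.1 over the 3 replicates. In replicates 1, 2 and 3 their medians were 16.1, 14.0 and 14.2, with a mean of 14.8 ± 1.16 (SD, n = 3). The median of all peaks was 4.15, 4.49 and 4.78 in the same lists, and that of peaks at places found in all 3 replicates was 5.84, 4.97 and 5.38. The genes were thus at 2.75, 2.82 and 2.63 times the median of the fully shared peaks. In each list 8 of the 10 genes were in the upper 5% of peaks by fold enrichment, and RPL3 was in each list the lowest of the set. No test was made of this difference, because the genes were picked as a group and are not replicates. Peaks on other gene starts were not measured apart from the rest of the lists. Whether the difference is particular to these genes was therefore not tested.

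RPS19 was the most enriched gene in each replicate, with fold enrichments of 24.0, 27.1 and 30.1, a mean of 27.1 ± 3.09 (SD, n = 3). It ranked 110 of 24899 peaks in replicate 1, 37 of 16809 in replicate 2 and 39 of 17298 in replicate 3. Its summits held 386, 239 and 212 fragments, also the most of the set. Its lowest value was above the highest of every other gene.

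RPL5 and RPS3 followed with values that overlapped. RPL5 had fold enrichments of 20.1, 17.8 and 21.0, a mean of 19.7 ± 1.64 (SD, n = 3). RPS3 had 20.2, 16.4 and 20.5, a mean of 19.0 ± 2.30 (SD, n = 3). RPL5 was the higher in 2 of 3 replicates. Their peaks were on average the narrowest of the set, with widths of 541 to 677 bp at RPL5 and 560 to 778 bp at RPS3.

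RPS2 varied between libraries. It had fold enrichments of 20.5, 14.5 and 13.2, a mean of 16.1 ± 3.89 (SD, n = 3), which gave it rank 2 of the 10 genes in replicate 1, rank 5 in replicate 2 and rank 8 in replicate 3. Relative to the mean, its SD was 24.2%, beside 22.8% at RPL3, and over the genome-wide background it was 21.1% at RPS2 and 24.7% at RPL3. The ratio of replicate 3 to replicate 1 was 0.644. The median ratio over the 14955 places called in both lists was 0.959, and 4.67% of them had a lower ratio than RPS2. RPS19 had the opposite order of the libraries, with a ratio of 1.26, and 85.4% of the same places had a lower ratio than RPS19. With fragments counted over the genome-wide background alone, RPS2 was still higher in replicate 1 (23.0) than in replicate 3 (15.8), whereas RPS19 had 49.6, 40.9 and 44.6 and was highest in replicate 1. The local background at RPS19 was 1.95 times the genome-wide level in replicate 1, against 1.34 and 1.28 in the others. It was at the genome-wide level in all 3 replicates at RPS2.

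The middle of the set was closely spaced. RPL23 had fold enrichments of 15.4, 16.0 and 14.8 (mean 15.4 ± 0.617, SD, n = 3), the smallest spread of the 10 genes. RPLP0 had 16.7, 13.6 and 15.8 (mean 15.4 ± 1.61, SD, n = 3). The order of these 2 genes differed between replicates.

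Below them, RPS6 had fold enrichments of 12.6, 12.3 and 13.5 (mean 12.8 ± 0.651, SD, n = 3). RPS14, whose loss on the long arm of chromosome 5 causes the anaemia of a form of myelodysplastic syndrome, had 10.9, 12.8 and 13.6 (mean 12.4 ± 1.37, SD, n = 3). RPL11 had 12.6, 9.95 and 10.9 (mean 11.2 ± 1.35, SD, n = 3). The ranges of RPS14 and RPS6 overlapped, as did those of RPL11 and RPS14.

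RPL3, which reaches toward the catalytic centre of the large subunit, had the weakest and on average the broadest peak. Its fold enrichments were 7.24, 6.14 and 9.55, a mean of 7.64 ± 1.74 (SD, n = 3), on 86, 41 and 54 fragments. This was at the 83.3rd, 75.2nd and 90.1st percentile of the lists. The peak was 1854 bp wide in replicate 1, 1342 bp in replicate 2 and 1028 bp in replicate 3. Its highest value was below the lowest value of each other gene, including RPL11.

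**Figure D2:**
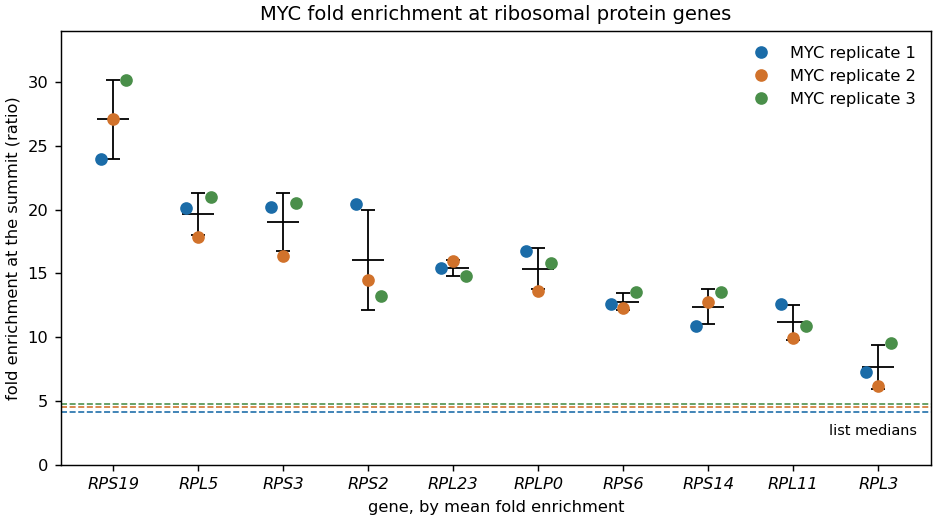
Fold enrichment at the summit of the strongest peak of each gene, with 1 point per MYC replicate and the mean ± SD over 3 replicates in black. Dashed lines are the medians of all peaks in each list (4.15, 4.49 and 4.78), and all 30 points lie above them, from 6.14 at RPL3 to 30.1 at RPS19.

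In the order of mean fold enrichment, from RPS19 over RPL5, RPS3, RPS2, RPL23, RPLP0, RPS6, RPS14 and RPL11 to RPL3, 3 of the 9 neighbouring pairs had ranges that did not overlap. These were RPS19 and RPL5, RPLP0 and RPS6, and RPL11 and RPL3. The other 6 neighbours did not differ beyond their spread. An exact permutation test of 3 values against 3 cannot give a p below 0.1 and was not run. Over all 45 pairs of genes, 34 (75.6%) had the same order in all 3 replicates and 33 (73.3%) had ranges apart. The same shares over all pairs of places found in all 3 replicates were 71.4% and 58.5%. The share in the same order was thus near that of all such places. The mean of the strongest gene was 3.54 times that of the weakest. The median of the 5 large subunit genes was 15.4, 13.6 and 14.8 in replicates 1, 2 and 3, and that of the 5 small subunit genes was 20.2, 14.5 and 13.6. The small subunit was the higher in 2 of 3 replicates, so the direction differed between libraries.

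**Figure D3:**
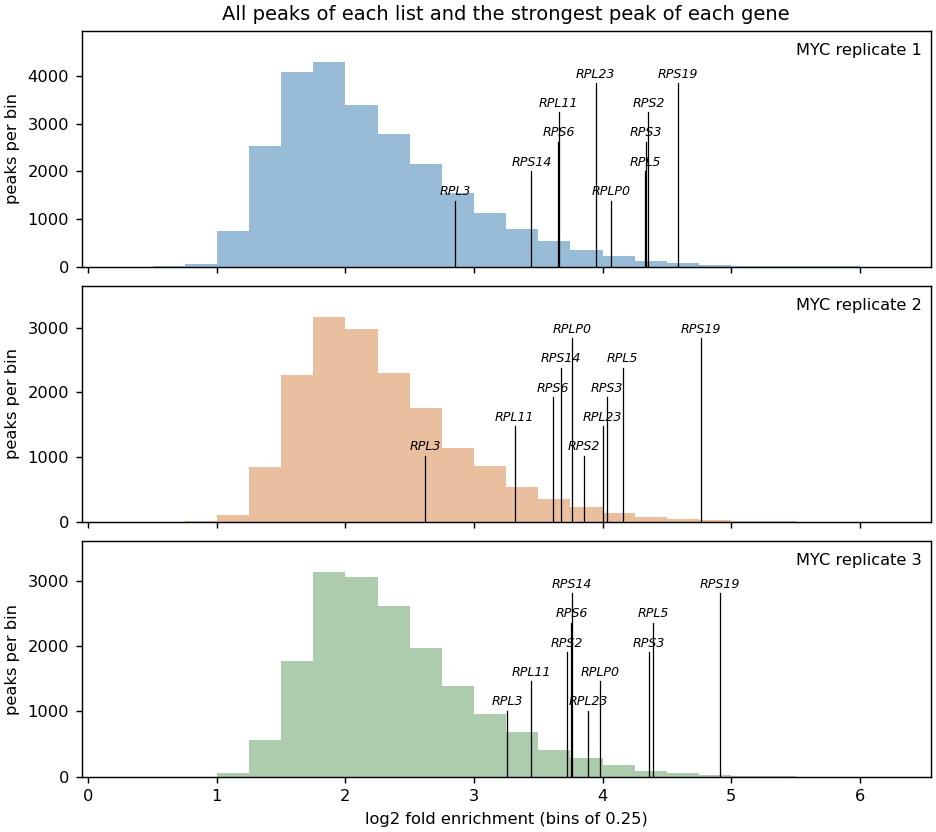
Number of peaks per bin of log2 fold enrichment in each MYC list (bars, bins of 0.25), with black lines at the strongest peak of each of the 10 genes. In each list 8 of the 10 genes lie in the upper 5% of peaks, with RPS19 the highest. RPL3 is the lowest of the genes, at the 83.3rd, 75.2nd and 90.1st percentile in replicates 1, 2 and 3.

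The fragments behind these values were worked back from each peak's fold enrichment and p-value. Over the 10 genes the median summit held 154, 95 and 86 fragments in replicates 1, 2 and 3, against 44, 34 and 30 over all peaks. The median local background at the genes was 1.24, 1.03 and 1.04 times the genome-wide level, close to the 1.16, 1.05 and 1.06 of all peaks. At RPL5, RPLP0 and RPS2 it was at the genome-wide level in all 3 replicates. By replicate, 3, 4 and 4 of the 10 genes were at this level, beside 28.9%, 40.4% and 40% of all peaks. The highest values in replicate 1 after RPS19 were 1.59 at RPS14, 1.42 at RPL3 and 1.34 at RPS6, and none of these exceeded 1.08 in the other 2 replicates. The part of this local background in the differences of fold enrichment was not tested.

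Counted over the genome-wide background, which leaves the local background out, RPS19 was further apart from the rest. It had a mean of 45.0 ± 4.34, against 24.3 ± 1.96 at RPS3 and 22.8 ± 2.26 at RPL5 (SD, n = 3). RPS3 and RPL5 changed places, as did RPS2 and RPL23, and RPS14 and RPS6. RPL3 stayed the lowest, at 9.81 ± 2.42, and the ratio of the strongest gene to the weakest was 4.59. On this measure all 10 genes were higher in replicate 1 than in replicate 2, with a median ratio of 1.20, beside 1.19 at all places shared by these lists.

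The peaks were wide. The median width over the genes was 1020 bp, 1016 bp and 1019 bp in replicates 1, 2 and 3, against 499 bp, 438 bp and 437 bp over each list, and all 10 genes were above the median of the list in each replicate. The widths of peaks on other gene starts were not measured apart, so whether this is particular to these genes was not tested. Merged over the replicates, the places ranged from 677 bp at RPL5 (hg19 chromosome 1, 93297399 to 93298075) to 1854 bp at RPL3 (chromosome 22, 39714526 to 39716379). The RPS19 place was 1457 bp wide (chromosome 19, 42363633 to 42365089).

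The last question was which letters the promoters of these genes hold. The stretch from 250 bases before to 50 bases after each RefSeq start was searched on both strands. A gene counted when any of its listed starts had the letters. Besides 7 of the 10 genes, the table held 56 of the other 69 genes on a list of cytosolic ribosomal proteins and 27305 genes in all. No match of one set of letters overlapped a match of another in the 7 genes. Presence of the letters does not show that a factor binds there, and the shares were not tested.

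The canonical E-box CACGTG was found in 1 of the 7 genes, RPS19, in 3 of the 56 other ribosomal protein genes (5.36%) and in 8.77% of all genes. A share of 1 in 7 is too small a count to set apart from this background. In RPS19 it began 11 bases after the later of the 2 listed starts, which is 160 bases after the earlier one. The variant CACGCG was in RPLP0, RPS6 and RPS19, in 19.6% of the other ribosomal protein genes and in 13.5% of all genes. CATGTG was in none of the 7, in 8.93% of the others and in 13.4% of all genes. Since 28 of the 30 MYC summits lay after the start, and most of them more than 50 bases after it by the hg19 starts used here, this window does not reach most summits.

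Letters known for other factors were counted in the same way. CCGGAAG, of ETS-family factors, was in RPS6, RPL11, RPL3 and RPS14, which is 4 of the 7 genes, in 18 of the other 56 (32.1%) and in 12.2% of all genes. RPS14 held it at 2 sites, which began 86 and 46 bases before the start. The GC box GGGCGG was in 5 of the 7, in 57.1% of the others and in 48.3% of all genes. AAGATGG, of YY1, was in RPS3 alone, in 14.3% of the others and in 7.11% of all genes.

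The start itself held a feature common to most of these genes. A C at the first base followed by at least 4 pyrimidines, the beginning of a TOP sequence, was found at a listed start of 6 of the 7 genes, all but RPL3. It was found in 41 of the other 56 ribosomal protein genes (73.2%) and in 5.14% of all genes. This feature was looked for after the other letters had been counted.

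**Figure D4:**
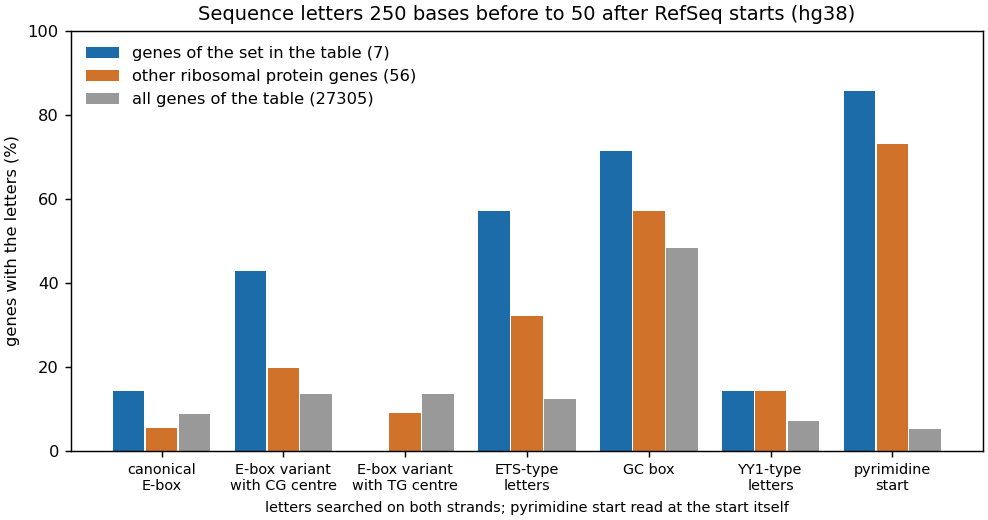
Percent of genes with the named letters from 250 bases before to 50 after a RefSeq start in hg38, for 7 of the 10 genes, 56 other ribosomal protein genes and all 27305 genes of the table. The pyrimidine start was instead read at the start itself. The pyrimidine start stands out in both ribosomal groups (6 of 7 and 73.2%, against 5.14% of all genes), while the canonical E-box is in 1 of 7, 5.36% and 8.77%.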

How the data were processed

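MYC ChIP-seq of ONS76 cells was analysed from the peak lists of 3 libraries, grouped by the labels. The authors used Bowtie2 for alignment to hg19 and MACS2 for peak calling, library by library (q-value threshold 0.05). Versions, control library and treatment of duplicates: not given in the sources used here. In the deposited lists a peak carries its fold enrichment (a ratio), −log10 of its p-value and of its q-value, and a score equal to 10 times −log10 q without decimals. The authors did not scale these values between libraries.

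Gene starts in hg19 came, unchecked, with the rule that defined the set, strands and neighbouring starts from GENCODE 44 (hg38), and promoters from RefSeq. Distances were counted in 1-based positions. No coordinate was carried between builds. The members, lists and letters were chosen with earlier results of these data known. The named genes were the 10 genes of the rule and genes with an annotated start within 5 kb of them. The strongest peak of a gene was that with the highest fold enrichment. Places were made by merging peaks that shared 1 bp or more. Summit fragments and local background were recovered by taking the fold as the ratio of both, each with 1 added, and p as the Poisson probability of more fragments. The −log10 p was matched within 0.001 for 100% of peaks, and 100% of 3000 simulated peaks were recovered. The lowest background of a list, 7.79, 5.84 and 4.76 fragments in replicates 1, 2 and 3, was taken as its genome-wide level and as the measure of depth, since read totals were not used here. Fragment numbers carry counting error. Values are means ± SD, and no test was run. Python 3.11.15, NumPy 2.4.6, pandas 2.3.3, SciPy 1.17.1 and Matplotlib 3.10.9 were used.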

Additional observations from a re-analysis of the deposited data

How the results depend on the processing

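All 10 genes kept a peak in at least 2 replicates with windows of 1 kb and 10 kb, q-values of at most 0.01 and 0.001, equal numbers of the strongest peaks (16809 in each list), a reciprocal overlap of 50%, all 3 replicates required, and each replicate left out. Except for the reciprocal overlap, these settings could not have removed a gene. The lowest −log10 q of a strongest peak was 18, and the farthest summit was 440 bp from its start. RPL3, the lowest of the set in each list, ranked 4157, 4173 and 1718 by fold enrichment in replicates 1, 2 and 3. Each gene had a peak in all 3 replicates, so 2 remained when 1 was left out. The median over genes of the mean fold enrichment was 15.4, and 14.3 to 15.7 when a replicate was left out. It was 17.7 with nothing added to fragments and background and 18.2 with fragments over the genome-wide background, which by construction are larger. The median over genes of the mean summit distance over replicates, unlike the medians within each replicate given above, was 115 bp. It was 112 to 141 bp when a replicate was left out, the highest without replicate 2. Taking the peak nearest to the start changed neither value. Pairs of genes in the same order were 34, with 35 when nothing was added, 39 over the genome-wide background, and 35 to 41 without a replicate, where fewer libraries have to agree in order. In a window of 10 kb, RPLP0 moved from 15.4 to 19.7, because a stronger peak lies in it, and no other gene moved by more than its SD under any of the 8 settings of window, q-value, list length and replicates. The mean number of peaks in the windows was 10.7, and 15.7 at 10 kb. CCGGAAG was in 3 of 7 genes instead of 4 from 100 bases before the start. The background fell as well, to 15 instead of 22 of all 63 ribosomal protein genes in the promoter table. Over all genes of that table it was 9.05% instead of 12.2%. The pyrimidine start and the background without single replicates (1.06 to 1.19, against 1.13) were added after the data were seen. The values of the other ribosomal protein genes were not run, as no annotation of hg19 was used here. No paired analysis was possible because no result compares the antibody groups: the peak lists are of MYC libraries, and whether IgG libraries served as their control, and with which pairing, is not known here.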

Other observations

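Between 5 and 10 kb from the start, peaks found in all 3 replicates lay near RPLP0, RPS2, RPS14 and RPL3, and they were looked at after their values were seen. The strongest of the 4 was 6346 to 6366 bp after the start of RPLP0, past the length of its transcript (4413 bases in hg38). It had fold enrichments of 23.2, 16.1 and 19.8 in replicates 1, 2 and 3, above the peak on the RPLP0 start itself in each replicate (16.7, 13.6 and 15.8). Near RPS14 a peak 9305 to 9321 bp before the start had 7.91, 5.73 and 5.50. Near RPL3 a peak 8600 to 8621 bp after the start had 4.33, 3.16 and 5.56. Which genes these peaks belong to was not determined, because no annotation of hg19 was used here.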
